A study of Mus musculus with 2 samples.

Results

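Chemokines and chemokine receptors were examined in bone marrow LSK cells, the lineage-negative, Sca-1-positive, c-Kit-positive fraction that holds haematopoietic stem cells and multipotent progenitors. The genes were taken by name: every non-control probe whose gene name in both scanner files began with Ccl, Cxcl, Ccr, Cxcr, Cx3cl, Cx3cr, Xcl or Xcr followed by a digit. This gave 51 genes with 65 probes, out of 27595 genes and 41174 probes on the array. The groups were PAD4-deficient LSK cells (PAD4-/-) and wild-type LSK cells, both from C57BL/6 mice, with 1 array each. The sources used here do not give the kind of PAD4 deletion, the age or number of the mice, or any pooling of animals. LSK cells were sorted from stained marrow, so a transcript of a mature cell can come from few contaminating cells or from the progenitors themselves, and fewer cells of a type cannot be told apart from less RNA per cell.

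Chemokines are small secreted proteins that direct cell migration, and they are classed by the spacing of their first cysteines as CC, CXC, CX3C or XC ligands. They act on receptors of the G-protein-coupled family that are named by the ligand class they bind. In bone marrow, CXCL12 made by stromal cells retains stem and progenitor cells through the receptor CXCR4, and other receptors guide precursors to the thymus or monocytes out into the blood.

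All values below are processed signals, the detrended spot intensity of a probe, and signals of different probes cannot be set against each other. A summed signal of a marker list follows mostly its brightest probes and does not measure how many cells of a type were present. A difference is log2 of the signal relative to the 75th percentile of its array, PAD4-deficient minus wild-type. Its error is the spot error of the scanner software carried over both arrays, which covers how a spot was read but leaves out how mice vary. With 1 array per group no test was possible, so a gene is called higher or lower when it differed by at least 1.5-fold. The 75th percentile was 786 on the PAD4-deficient array and 814 on the wild-type array, and 64.1% and 63.9% of the probes cleared the scanner software's flag for a signal well above background. Padi4, which encodes PAD4, had a signal of 2670 on the PAD4-deficient array and 12879 on the wild-type array, lower by all 3 of its probes. Whether these probes lie in the deleted part of the gene is not known here. The sort markers Kit, Ly6a (Sca-1) and Cd34 were measured on both arrays and differed by 0.07, -0.14 and -0.10. Xist cleared background in PAD4-deficient cells (signal 16255) and not in wild-type cells (3.93), and the Y-linked Ddx3y had 1297 and 3455. Xist and Ddx3y were thus both above background on the PAD4-deficient array, and Ddx3y without Xist on the wild-type array. The labels give no sex. Sex-linked transcripts differed along with genotype, and these cannot be told apart.

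Of the 51 genes, 28 were well above background on both arrays (the measured genes), 1 in wild-type cells alone and 21 in neither. The 28 are 54.9% of the members, against 61.7% of all 27595 genes that were measured on both arrays. Among the 28 measured genes, 6 were at least 1.5-fold higher in PAD4-deficient cells, which were Cxcl9, Ccr2, Cxcr3, Xcl1, Xcr1 and Cxcl4. This is 21.4% of them, against 2.88% of all 17021 measured genes. Cxcl12 and Ccr9 were at least 1.5-fold lower, 7.14% against 1.87% of all measured genes. Over all measured genes this was 490 higher and 318 lower, a split that was 426 and 417 when arrays were scaled to their medians. The median difference was 0.14 for the 28 genes and 0.02 for all measured genes. At 2-fold the higher genes were Cxcl9 and Ccr2 (1.01% of all measured genes were 2-fold higher) and the lower gene was Cxcl12 (0.476%). Of the 28 differences, 12 were no larger than their own scanner error.

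Most of the genes that differed had dim probes. Of the measured members, 17 had a signal below the median of all measured genes, and 5 of these were higher and 2 lower, against 5.18% and 3.06% of all genes in that range. Of the 11 members at or above the median, 1 was higher (Cxcl4) and none was lower, against 0.576% and 0.681% of all genes there. This split by signal was chosen after seeing the data.

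**Figure D1:**
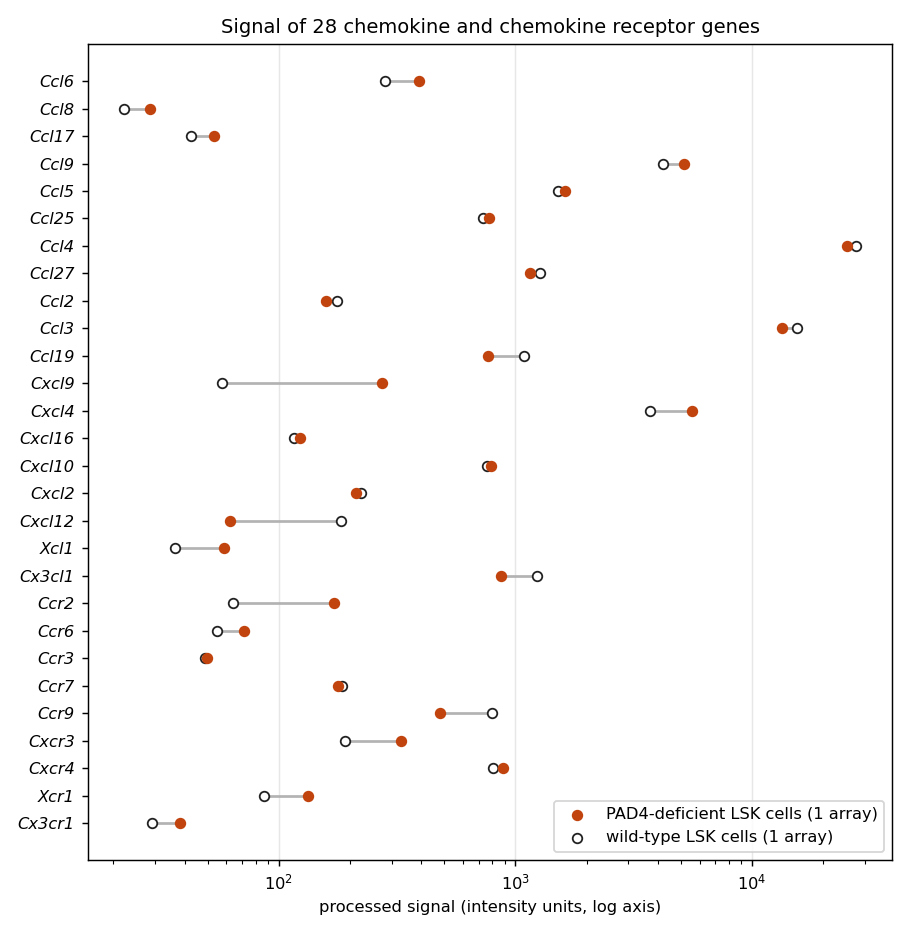
Processed signal (horizontal, log axis) of the 28 genes well above background on both arrays, ordered by role. Filled points are the PAD4-deficient array and open points the wild-type array. The longest lines between points are those of Cxcl9 (273 and 57.6), Cxcl12 (62.1 and 183) and Ccr2 (172 and 63.8).

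The CC ligands, which attract monocytes, lymphocytes and other leukocytes, had a median difference of 0.13 over the 11 of 20 that were measured. None differed by 1.5-fold in either direction, where 2.88% of all measured genes were higher and 1.87% lower, so a count of 0 among 11 is near the background share. Ccl4 and Ccl3, the inflammatory chemokines MIP-1beta and MIP-1alpha, gave the highest processed signals among the members. Ccl4 had 25132 in PAD4-deficient cells and 27472 in wild-type cells, and Ccl3 had 13346 and 15481. Their differences of -0.08 and -0.16 were within the error of 0.20, so no difference could be seen for these ligands at the precision of 1 array each. Ccl9, a myeloid chemokine, had 5167 in PAD4-deficient cells and 4199.8 in wild-type cells (difference 0.35, error 0.20). Its neighbour Ccl6 had 392 and 281 and came nearest to the threshold from below (0.53, error 0.21).

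Ccl19, a ligand of the receptor CCR7 on T cells and dendritic cells, lay furthest below wild-type among the CC ligands. Its signal was 766 in PAD4-deficient cells and 1092 in wild-type cells, a difference of -0.46 (error 0.20), with -0.30 at its second probe. RefSeq lists Ccl19 pseudogenes near the gene, so its probes may bind several copies. Ccl5, which attracts T cells, had 1620.3 in PAD4-deficient cells and 1511 in wild-type cells, and its probes gave 0.15 and 0.21. Ccl25, the thymic and gut ligand of CCR9, had 774 and 731 (0.13 and 0.29 by its probes). Ccl27, a skin chemokine with close copies in the genome, had 1158 and 1268 (-0.08). These 3 ligands thus lay within or near the scanner error. Ccl2, the main monocyte attractant, was printed in 10 spots and averaged 158 in PAD4-deficient cells and 176 in wild-type cells. Its difference was -0.11. The SD among its single spots was 0.07 on the PAD4-deficient array and 0.14 on the wild-type array on the log2 scale. A mean over 10 spots varies less than a single spot, so these SDs do not measure the spread of the difference. Ccl17 and Ccl8 were dim: Ccl17 had 53.4 and 42.7 (0.37, error 0.26), and Ccl8 had 28.5 and 22.2 (0.41, error 0.37). The remaining 9 CC ligands, Ccl1, Ccl7, Ccl11, Ccl12, Ccl20, Ccl21c, Ccl22, Ccl24 and Ccl28, were not well above background on either array.

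Cxcl9, an interferon-gamma-induced attractant of activated T and NK cells, had the largest difference of all members. The only Cxcl9 probe (mm8 chromosome 5, 93398365 to 93398424) read 273 in PAD4-deficient cells and 57.6 in wild-type cells. This is 4.90-fold, or 2.29 on the log2 scale with an error of 0.23. The chromosomal neighbours Cxcl10 and Cxcl11 encode the other ligands of the same receptor, CXCR3. Cxcl10 had 788 in PAD4-deficient cells and 758 in wild-type cells, a difference of 0.11 within its error of 0.20. Cxcl11 was not well above background on either array (4.52 and 4.66). Of these 3 ligands, Cxcl9 alone was higher.

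The start regions of the 2 measured neighbours are shown because their differences were unlike each other although the genes lie side by side and answer to interferon. The sequences are the 250 bases before the annotated start, from RefSeq on GRCm38.p6, at chr5:92328080-92328329 for Cxcl9 and chr5:92348890-92349139 for Cxcl10, both on the minus strand and written 5′ to 3′. Capitals mark matches, on either strand, to TTTC and TTTC with any 2 bases between them (an interferon-stimulated response element), to TTCNNNGAA (a STAT-binding GAS element) or to the NF-kappaB consensus.
Cxcl9: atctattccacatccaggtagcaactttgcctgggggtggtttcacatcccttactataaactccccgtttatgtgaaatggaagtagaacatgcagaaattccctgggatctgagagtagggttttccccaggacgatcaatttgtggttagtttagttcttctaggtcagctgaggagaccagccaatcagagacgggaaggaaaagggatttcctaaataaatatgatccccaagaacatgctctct
Cxcl10: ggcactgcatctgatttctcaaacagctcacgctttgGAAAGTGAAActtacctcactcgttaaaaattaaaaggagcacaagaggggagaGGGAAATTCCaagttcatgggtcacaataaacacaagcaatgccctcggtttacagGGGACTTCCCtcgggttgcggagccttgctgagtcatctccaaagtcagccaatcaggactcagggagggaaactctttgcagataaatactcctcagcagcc
The Cxcl10 window held 1 match to the response element, starting 213 bases before the start, and 2 to the NF-kappaB consensus, starting 159 and 103 bases before it, with no overlap among them. The Cxcl9 window held none of these exact letter patterns. Near matches and other interferon elements were not searched for, so this says nothing about the factors. Among 27025 RefSeq start regions, 3.05% held the response element, 7.14% the GAS pattern and 3.74% the NF-kappaB consensus. RefSeq start regions were found for 38 of the 51 genes, of which 3, 4 and 6 held the patterns in that order.

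Cxcl12, the stromal ligand that holds stem cells in the marrow, was the gene furthest below wild-type. Its brighter probe (mm8 chromosome 6, 117146828 to 117146887) had 62.1 in PAD4-deficient cells and 183 in wild-type cells, a difference of -1.51 with an error of 0.22, or 2.84-fold higher in wild-type. The brighter probe is annotated in the scanner files to transcript variant 2 and a second probe to transcript variant 1. The second probe was not well above background on either array (4.12 and 6.99). The 250 bases before the Cxcl12 start (GRCm38.p6 chr6:117168285-117168534, plus strand) held none of the 3 patterns. They are shown because this is the ligand of the best-studied retention signal of LSK cells.
Cxcl12: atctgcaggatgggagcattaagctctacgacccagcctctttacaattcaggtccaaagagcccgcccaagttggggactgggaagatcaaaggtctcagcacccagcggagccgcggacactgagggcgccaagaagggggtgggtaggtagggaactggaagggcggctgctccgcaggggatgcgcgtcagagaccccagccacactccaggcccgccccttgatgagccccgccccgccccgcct
Its receptor gene Cxcr4 was close to equal, with 890.0 in PAD4-deficient cells and 801 in wild-type cells (0.20, error 0.20) and -0.04 at its second probe. Of this ligand and receptor pair, the ligand alone was past 1.5-fold. Of the 10 other stromal and endothelial markers, 5 were measured and had a summed signal of 1473 in PAD4-deficient cells and 1403 in wild-type cells. Bgn, a matrix proteoglycan, was at least 1.5-fold lower (110 and 175, difference -0.63), and none was 1.5-fold higher. Over all measured genes 1.87% were lower and 2.88% higher (3.06% and 5.18% of those below the median signal). Col1a2, a collagen chain, had 580.3 and 426 (0.50, error 0.20), Vcam1, an adhesion molecule, had 246 and 194 (0.39, error 0.21), and Pecam1 and Sparc were at -0.13 and -0.12. Kitl, Lepr, Col1a1, Col3a1 and Cdh5 were not well above background on either array, and the part of stromal cells in the Cxcl12 difference was not tested.

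Among the other CXC ligands, Cxcl4, the platelet factor now named Pf4, had 5553 in PAD4-deficient cells and 3719 in wild-type cells, a difference of 0.63 (error 0.20). It was the only higher member at or above the median signal of all measured genes, and with median scaling it came to 0.57, under 1.5-fold. Of the 3 other megakaryocyte markers, Selp alone was higher (920 and 518, difference 0.88 and 0.37 by its probes), against 2.88% of all measured genes. Gp9 was near 0 (0.03) and Itga2b lower by less than 1.5-fold (-0.43). The summed signal of these 3 markers was 4237 in PAD4-deficient cells and 4390 in wild-type cells. The part of megakaryocytic cells in the Cxcl4 difference was not tested. Ppbp, the other platelet chemokine, which the gene names put outside the family, had 152 and 134 (0.22, error 0.21). Cxcl2, a neutrophil attractant, had 212 in PAD4-deficient cells and 223 in wild-type cells (-0.03). Cxcl16, a transmembrane chemokine, depended on the probe: its brighter probe had 123 and 116 (0.13), and the dimmer had 70.5 and 41.7 (0.81, error 0.25). Cxcl14 cleared background in wild-type cells alone (9.47 in PAD4-deficient cells and 25.0 in wild-type cells), with a smallest possible fold below 1.5. Cxcl1, Cxcl5, Cxcl11, Cxcl13 and Cxcl15 were not well above background on either array.

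**Figure D2:**
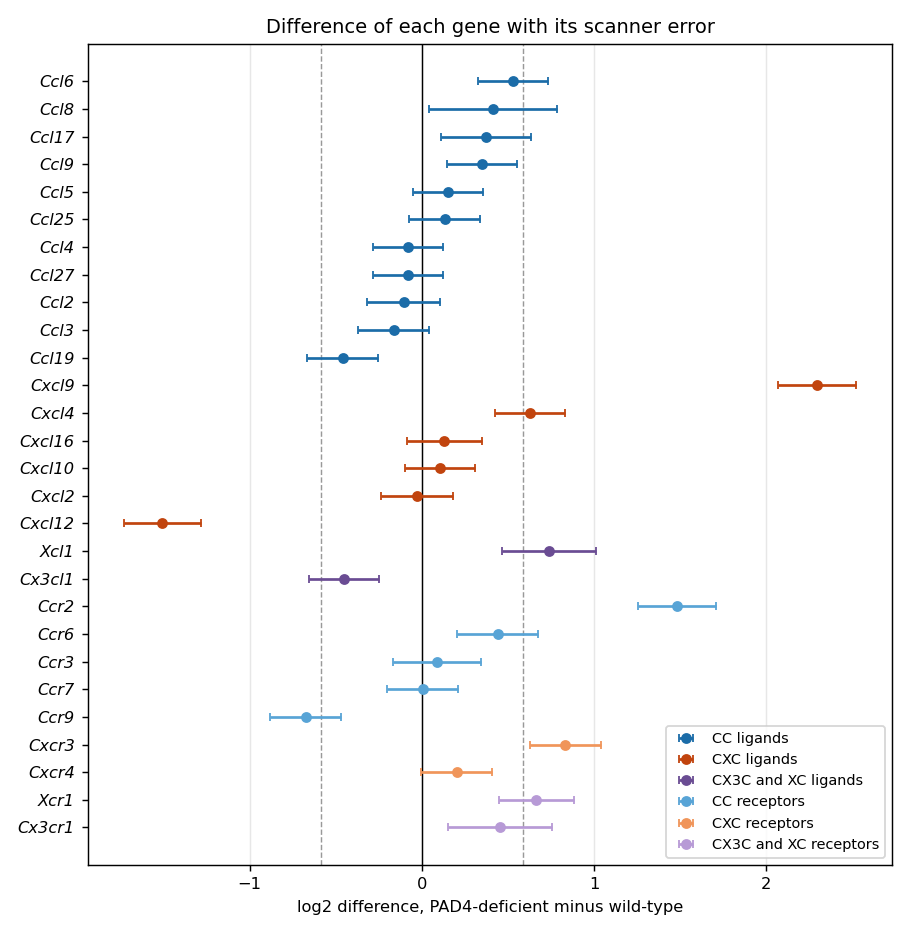
Log2 difference (horizontal, PAD4-deficient minus wild-type) of the 28 measured genes, coloured by role. Bars are the scanner error, 1 array per group, and dashed lines mark 1.5-fold. All 11 CC ligands lie between the dashed lines, while Cxcl9, Ccr2 and Cxcl12 lie far outside them.

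Of the CX3C and XC ligands, Xcl1 was past 1.5-fold and Cx3cl1 was not. Xcl1, lymphotactin, which NK and T cells make, had 58.8 in PAD4-deficient cells and 36.5 in wild-type cells, a difference of 0.74 (error 0.27). Cx3cl1, fractalkine, a membrane-anchored ligand, had 872 and 1235 (-0.45, error 0.20), while its dim second probe had 22.7 and 22.2 (0.08, error 0.40), and the mean over both probes was -0.19.

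Of 17 receptors, 9 were measured on both arrays, and 8 of these 9 lay above 0, with a median of 0.44. Over all measured genes, 9363 of 17021 lay above 0, with a median of 0.02. Among the receptors, Ccr7 stood at 0.00 and turned to -0.05 with median scaling and -0.02 with quantile normalization. At least 1.5-fold higher were 3 of the 9, and 1 was lower, against 2.88% and 1.87% of all measured genes. The 19 measured ligands had a median of 0.13, and ligands and receptors were not compared by a test.

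Ccr2, the receptor that monocytes and their progenitors use to leave the marrow, was the receptor with the largest difference. Its probe (mm8 chromosome 9, 123957008 to 123957067) had 172 in PAD4-deficient cells and 63.8 in wild-type cells, 2.79-fold or 1.48 on the log2 scale (error 0.23). None of its measured ligands was higher (Ccl2 at -0.11, Ccl8 at 0.41). The 250 bases before the Ccr2 start are shown as the receptor that differed most (GRCm38.p6 chr9:124101933-124102182, plus strand). They held none of the 3 patterns.
Ccr2: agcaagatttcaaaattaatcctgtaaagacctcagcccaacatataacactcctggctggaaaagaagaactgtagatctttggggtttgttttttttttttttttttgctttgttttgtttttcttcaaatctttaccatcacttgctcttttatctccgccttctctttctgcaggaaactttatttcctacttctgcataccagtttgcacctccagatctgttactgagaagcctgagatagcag
Of 7 monocyte and macrophage markers, 6 were measured, and their summed signal was 72711 in PAD4-deficient cells and 70420 in wild-type cells. Most of this sum was Lyz2 (52969 and 52689), so it says little about the dimmer markers. F13a1, a transglutaminase of monocytes, was higher (1344 and 456, difference 1.61), 1 of the 6, against 2.88% of all measured genes. Lyz2, Csf1r and Cd14 were at 0.06, 0.10 and -0.17, with -0.35 at the other measured Csf1r probe, and Adgre1 was at 0.43. Ly6c1 depended on the probe, with 0.15 by its brightest and 1.84 by its other probe. Vsig4, of tissue macrophages, cleared background in PAD4-deficient cells alone (261 and 14.6, at least 15.2-fold). The part of monocytic cells in the Ccr2 difference was not tested.

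Ccr9, the receptor for CCL25 that guides lymphoid progenitors to the thymus, was the only lower receptor. Its probe (mm8 chromosome 9, 123629914 to 123629973) had 482 in PAD4-deficient cells and 796 in wild-type cells, a difference of -0.67 (error 0.20). Its ligand gene Ccl25 differed by 0.13. Flt3, a receptor tyrosine kinase of the lymphoid-primed progenitors and 1 of the 8 LSK markers, was also lower, with 1481 in PAD4-deficient cells and 2439 in wild-type cells (-0.67, error 0.20), while the other 7 LSK markers lay between -0.20 and 0.47. Over all measured genes 1.87% were at least 1.5-fold lower. Ccr7, which leads lymphocytes and dendritic cells to lymph nodes, had 179 and 184 and a difference of 0.00 (error 0.21). Ccr6, of B cells and some T cells, had 71.5 and 54.6 (0.44, error 0.24). Ccr3, of eosinophils and basophils, had 49.96 and 48.7 (0.09, error 0.26). These 3 receptors differed by less than 1.5-fold. Ccr1, Ccr1l1, Ccr4, Ccr8 and Ccr10 were not well above background on either array.

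Cxcr3, the receptor of CXCL9, CXCL10 and CXCL11 on T and NK cells, had 327 in PAD4-deficient cells and 190.2 in wild-type cells, a difference of 0.83 (error 0.21). It lies on chromosome X, on arrays that differed in sex-linked transcripts, and the part of sex in its difference was not tested. Cxcr3 and its ligand Cxcl9 were thus both higher in PAD4-deficient cells. Of 6 T and NK cell markers, 3 were measured: Klrb1c, a natural killer receptor, was higher (207 and 128, difference 0.75), Cd3e was at 0.33 and Cd4 at -0.29. Over all measured genes 2.88% were at least 1.5-fold higher. Cd8a cleared background in PAD4-deficient cells alone (75.5 and 9.74, at least 4.42-fold), Ncr1 and Cd3g on neither, and the part of T and NK cells in the Cxcr3 and Xcl1 differences was not tested. Cxcr6 and Cxcr7 were not well above background on either array.

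Xcr1, the receptor of XCL1 on cross-presenting dendritic cells, had 133 in PAD4-deficient cells and 86.8 in wild-type cells, a difference of 0.66 (error 0.22). The dimmer Xcr1 probe had 32.2 and 4.85 and cleared background in PAD4-deficient cells alone, by at least 1.88-fold. Ligand and receptor of this pair were thus both higher on the processed signals, but with normexp background correction and an offset of 50 both were under 1.5-fold (Xcl1 0.37, Xcr1 0.41), and without the offset Xcr1 was (0.55). Of 5 other dendritic cell markers, 4 were measured, with a summed signal of 5709 in PAD4-deficient cells and 2920 in wild-type cells. Batf3, a transcription factor of these cells (2.02), and the antigen-presenting class II gene H2-Eb1 (1.39) were higher. These are 2 of the 4, against 2.88% of all measured genes. H2-Aa, also a class II gene, was at 0.40 and 0.57 by its probes, and Itgax at 0.08 and 0.37, all under 1.5-fold. Siglech was not well above background on either array, and the part of dendritic cells in the Xcr1 difference was not tested. Other lineages also had higher markers: 3 of 5 measured erythroid, 3 of 5 mast cell and basophil, and 2 of 5 B cell. Of the measured neutrophil markers 1 of 6 was higher, and of the plasma cell markers 1 of 3. No marker in these lists was 1.5-fold lower. The part of these lineages in the members' differences was not tested. Cx3cr1, the fractalkine receptor of monocytes, had 38.4 in PAD4-deficient cells and 29.1 in wild-type cells (0.45, error 0.30), and its second probe was not well above background.

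Chemokine genes lie in clusters, and neighbours in a cluster differed unequally. On chromosome 5, Cxcl9 at 2.29 lay next to Cxcl10 at 0.11, and Cxcl4 at 0.63 lay near Cxcl2 at -0.03. On chromosome 9, the receptor cluster held Ccr9 at -0.67, Xcr1 at 0.66, Ccr3 at 0.09 and Ccr2 at 1.48. On chromosome 11, the 7 measured CC ligands of 11 in the cluster lay between -0.16 and 0.53, with Ccl9 and Ccl6 on the positive side of it and Ccl3 and Ccl4 just below 0. No cluster had all its measured genes past 1.5-fold.

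**Figure D3:**
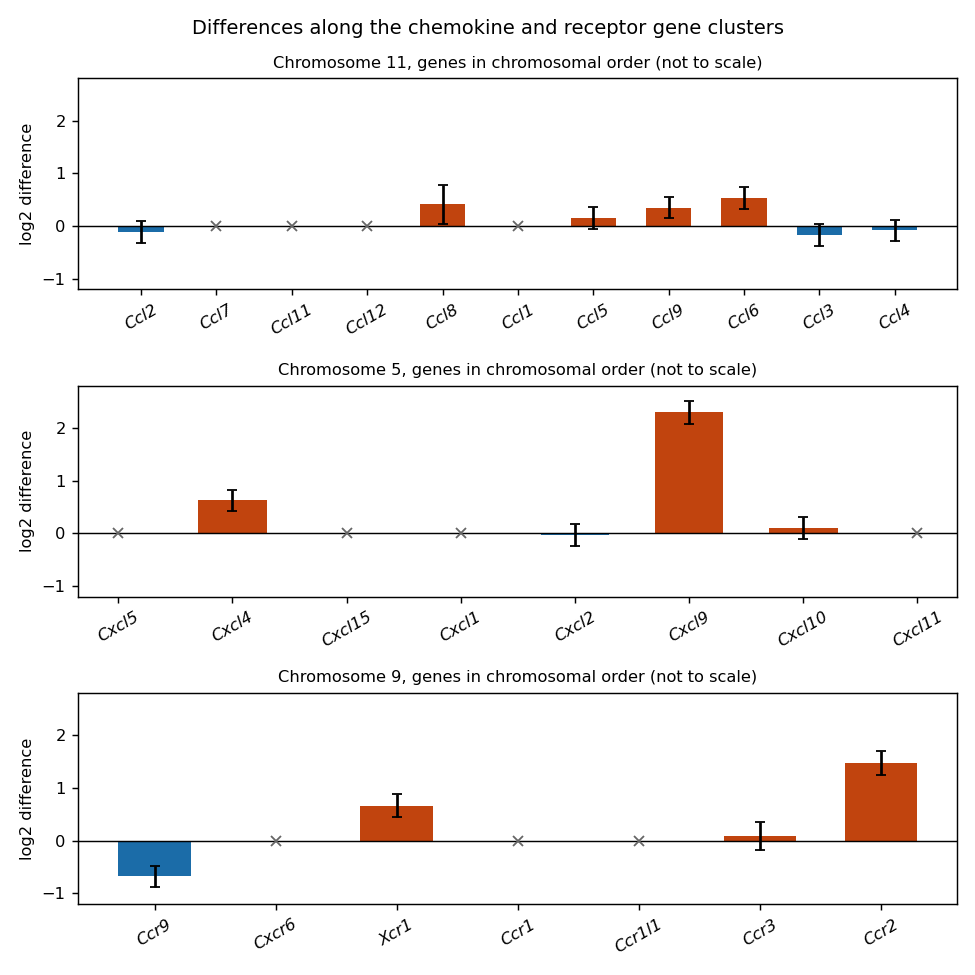
Log2 difference (vertical, PAD4-deficient minus wild-type) of genes in the 3 largest clusters, in chromosomal order and not to scale. Bars carry the scanner error and crosses mark genes not well above background on either array. Cxcl9 (2.29) and Ccr2 (1.48) stand beside neighbours near 0.

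Genes of chemokine receptor signalling were taken as a list. It held G proteins, arrestins, receptor kinases, RGS proteins and migration effectors, and also the surface proteins Dpp4 and Cd164. All 48 genes were measured, and by their brightest probes none was 1.5-fold higher or lower. Over all measured genes 2.88% were higher and 1.87% lower (0.576% and 0.681% of those at or above the median signal), so this count is near the background share. Other probes of 2 of these genes were past 1.5-fold: a Gnai1 probe, of an inhibitory G protein, at 1.01 against -0.04 by its brightest, and a Pak2 probe, of a kinase downstream of Rac, at -0.78 against -0.03. The list's median was -0.03, with 18 above and 30 below 0, against 9363 above and 7658 below over all measured genes. The extremes were Grk5, a receptor kinase, with 167 in PAD4-deficient cells and 144 in wild-type cells (0.26), and Dock2, a Rac activator needed for leukocyte migration, with 1789 and 2339 (-0.34, and -0.56 at its other probe). Of 13 atypical receptors and related genes outside the family's names, 10 were measured. Blr1, now Cxcr5, the follicular homing receptor of B cells, was higher (70.3 and 46.1, difference 0.66, error 0.26), and none was 1.5-fold lower. The shares over all measured genes were 2.88% higher and 1.87% lower (5.18% and 3.06% of those below the median signal). Il8rb, now Cxcr2, the neutrophil receptor, had 54.3 and 45.1 (0.32, error 0.25), and Ccrl2, an atypical receptor, had 2160.4 and 2649 (-0.24, error 0.20). Darc, Ccrl1 and Ccbp2, which scavenge chemokines, were dim, and Darc had 30.5 and 21.8 (0.54, error 0.37). Ccrl1 (5.01 in PAD4-deficient cells and 19.05 in wild-type cells) and Ccbp2 (6.17 and 19.4) cleared background in wild-type cells alone. Both had a smallest possible fold below 1.5, so no difference could be seen for them.

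**Figure D4:**
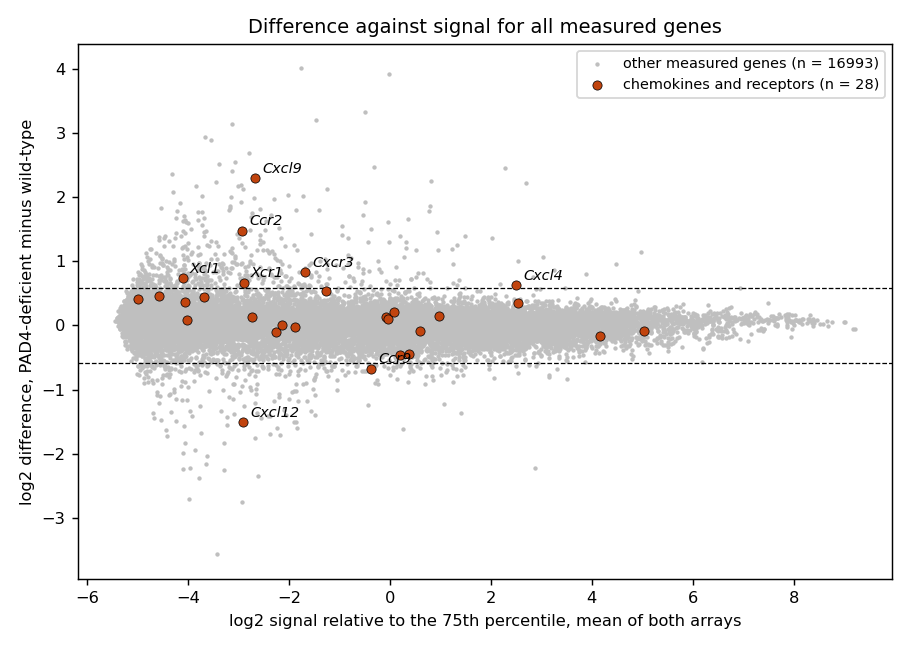
Log2 difference (vertical) against the mean log2 signal relative to the 75th percentile (horizontal) for 28 chemokine and receptor genes (large points) and 16993 other measured genes (small points). Dashed lines mark 1.5-fold. The 6 higher and 2 lower members are named, and 7 of these 8 lie below the median signal of all measured genes.

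The sizes of the dim differences depended on the background correction. With normexp, a model-based correction, and an offset of 50, Cxcl9 differed by 1.56, Ccr2 by 0.95 and Cxcl12 by -0.93. All 3 kept their direction, though the offset shrinks dim differences by construction. Xcl1 (0.37) and Xcr1 (0.41) were then less than 1.5-fold different. Without the offset, Cxcl9 had 2.10, Ccr2 1.38, Cxcl12 -1.28, Xcl1 0.65 and Xcr1 0.55, the last again under 1.5-fold. Cxcl4 (0.61 with the offset), Ccr9 (-0.64) and Cxcr3 (0.66) moved by less than their scanner error.

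**Figure D5:**
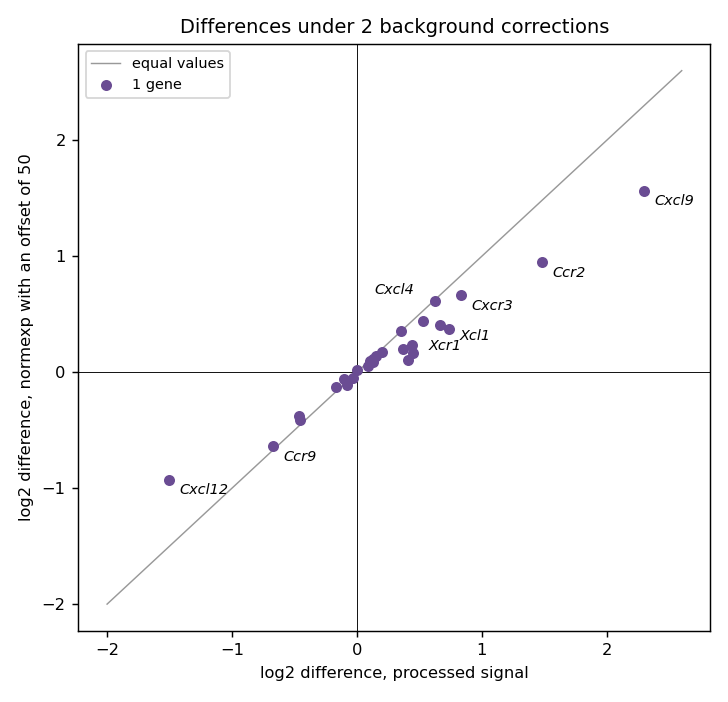
Log2 difference of the 28 measured genes with normexp and an offset of 50 (vertical) against that of the processed signal (horizontal), each point 1 gene. Most points lie near the line of equal values, and Cxcl9 (1.56 against 2.29), Ccr2 (0.95 against 1.48) and Cxcl12 (-0.93 against -1.51) lie closer to 0.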

How the data were processed

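RNA of PAD4-deficient and wild-type LSK cells was hybridised to 1-colour Agilent arrays (design 014868), per the file headers, with 1 array per group on the same slide and scan. The deposited scanner files give spot intensity on a linear scale, spatially and multiplicatively detrended by the authors with Feature Extraction 9.5.3.1, per the file headers. The authors' deposited values are log2: their columns, with medians of -3.53 (PAD4-deficient) and -3.59 (wild-type), were the log2 processed signal minus a constant per array (within 0.01 for 41013 and 41024 of 41170 probes), so scale, centring and direction were settled.

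Control spots and outlier spots were left out, which removed 4 probes. Spots of a probe were averaged as log2 values, and each array was scaled to its 75th percentile. A gene took its brightest probe well above background on both arrays. No member probe was saturated. Probe coordinates are on mm8; no mm8 annotation was used here, so exon or UTR is not stated. Names were matched to RefSeq (GRCm38.p6): 24371 probes by accession, 6301 by symbol, 2426 by synonym, and 8072 kept the file's name. A probe measured on 1 array has an at-least fold, the bright value over the higher of the dim value and the lowest value well above background on the dim array. The lists and members were chosen with earlier results of these data known; the sex-linked list and the split by signal were added after seeing the data. Named genes were those past 1.5-fold, on 1 array only, among the 6 highest signals, with probes of opposite sign, or receptors; other members are given for completeness. The steps were tested on simulated data. Python 3.11.15, numpy 2.4.6, pandas 2.3.3, and limma 3.58.1 in R 4.3.3 (normexp) were used. For 1 member, values are not reported here.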

Additional observations from a re-analysis of the deposited data

How the results depend on the processing

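No paired analysis was possible because there was 1 array in each group, and leaving out a replicate was not possible with so few. The 6 higher and 2 lower members became 2 and 1 at 2-fold, and 10 and 4 of 51 with no filter on signal, which takes dim probes as measured. The 490 higher and 318 lower genes among all measured became 204 and 132 with normexp and an offset of 50, 962 and 622 where 1 array above background sufficed, 2309 and 1395 without a filter, and 172 and 81 at 2-fold. The share of higher among these calls, 60.6%, was 50.5% with median scaling (426 and 417) and 54.1% with quantile normalization (441 and 374). The offset shrinks dim differences by construction; the other filters and the fold change what is counted. The members' median of 0.14 lay between 0.085 (median scaling) and 0.20 (mean over probes). Of 22 members followed singly, normexp moved 5 by more than the scanner error with the offset and 1 without it. Both looser filters leave all 22 as they were by construction, and the mean over probes leaves 16. With the mean over probes, Cx3cl1 had -0.19 and Cxcl16 0.47. With median scaling, Cxcl4 had 0.57, just under 1.5-fold. No member past 1.5-fold changed sign under any alternative run, but most runs could hardly have turned a difference that large. The filters and the fold leave the values as they were, and median or percentile scaling shifts all genes alike. Signal over background limits the dim probes, and 1 array per group limits all differences.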
